A study of Sus scrofa with 23 samples.

Results

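De novo lipogenesis, the synthesis of fatty acids from acetyl-CoA, was followed through 5 genes in the RNA-seq data of pig backfat, the subcutaneous fat of the back. The genes were chosen by name along the pathway: SLC25A1 (ENSSSCG00000010116), ACLY (ENSSSCG00000017421), ACACA (ENSSSCG00000017694), FASN (ENSSSCG00000029944 and ENSSSCG00000023044) and SCD (ENSSSCG00000010554). They make up 6 of the 25322 gene identifiers counted in each of 23 pigs, and all 6 passed the filter on low counts in every comparison. The pigs were crossbred fatteners, offspring of Polish Landrace × White Large Polish sows and a Duroc × Pietrain boar, penned singly and fed diets of equal energy. The paper describes them as gilts and barrows, so the pigs labelled male were castrated males. Group I (-DDGS+rapeseed oil) held 7 pigs (4 females, 3 males) and received no corn dried distillers grains with solubles (DDGS), the residue of maize left after alcohol production. The other groups received DDGS, with rapeseed oil in group II (+DDGS+rapeseed oil, 6 pigs, 3 females, 3 males), beef tallow in group III (+DDGS+beeftallow, 5 pigs, 2 females, 3 males) and coconut oil in group IV (+DDGS+coconut oil, 5 pigs, 3 females, 2 males). Only the contrast of groups I and II changes DDGS with the added fat held constant. In the paper, the group II diet still held more crude fat, a higher share of linoleic acid (C18:2) and less starch than the group I diet. These differences come with the DDGS and cannot be told apart from it here. The paper had already named all 5 genes as lowered in group II of these same pigs, so they are not an independent set.

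In this pathway citrate leaves the mitochondria through the carrier SLC25A1 and is cleaved in the cytosol by ATP citrate lyase (ACLY) to acetyl-CoA. Acetyl-CoA carboxylase (ACACA) turns acetyl-CoA into malonyl-CoA, the committed step, and fatty acid synthase (FASN) extends it with NADPH to palmitate. Stearoyl-CoA desaturase (SCD) then introduces a double bond into stearate and palmitate, which gives the monounsaturated acids of stored fat. In pigs, adipose tissue is a main site of fatty acid synthesis, and dietary fat, polyunsaturated fat above all, is known to lower the expression of these enzymes.

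The files hold from 2437172 to 7979426 gene counts a pig (median 4717511), and each member had at least 105 counts in every pig. The 5 genes together took between 0.661 and 4.23% of a pig's gene counts. Expression is given as CPM, counts per 1000000 after TMM normalization over the 23 pigs. The adipocyte markers PLIN1 and CIDEC, which coat and enlarge lipid droplets, were expressed in all pigs, with a summed level from 995 to 1852 CPM. Skeletal muscle markers (ACTA1 and MYL1 summed) ranged from 0.885 to 1948 CPM, with a wide range in all 4 groups. Reads that mapped to 1 place but fell outside annotated genes made up from 51.1 to 71.3% of the reads placed once, and the group means ± SD were 56.8 ± 2.53% (I), 62.5 ± 5.81% (II), 56.8 ± 4.0% (III) and 63.0 ± 5.05% (IV).

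All 5 genes had their highest group mean in group I. SLC25A1 was expressed from 50.4 to 143 CPM in group I, with a median of 89.1. In group II it ranged from 30.5 to 67.0 CPM with a median of 52.6. Pigs 41, 43, 45, 46 and 48 of group III had 30.7, 37.6, 47.6, 29.3 and 131 CPM, so that 4 of them lay below every pig of group I and pig 48 lay among its highest. In group IV, pigs 49, 52, 53, 54 and 55 had 36.1, 67.7, 56.7, 40.1 and 52.3 CPM. Groups II and IV thus overlapped the lower end of group I.

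ACLY, which supplies cytosolic acetyl-CoA, varied most from pig to pig among the 5 genes. It ranged from 325 to 1476 CPM in group I (median 555) and from 174 to 348 CPM in group II (median 230), where only pig 22 was above the lowest pig of group I. In group III the values of pigs 41, 43, 45, 46 and 48 were 213, 151, 103, 196 and 1401 CPM. In group IV those of pigs 49, 52, 53, 54 and 55 were 162, 1149, 487, 334 and 332 CPM. Pigs 48 and 52 were thus set apart from the rest of their groups, and both were at the level of the highest pigs of group I.

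ACACA ranged from 607 to 1960 CPM in group I (median 1023) and from 515 to 859 CPM in group II (median 566). Pigs 41, 43, 45, 46 and 48 of group III had 603, 527, 393, 460 and 1297 CPM. Pigs 49, 52, 53, 54 and 55 of group IV had 393, 1033, 1036, 606 and 831 CPM. Group IV ran from below every pig of groups I and II to just above the median of group I, and pig 48 again lay above the rest of group III.

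FASN, given as the sum of its 2 identifiers, ranged from 5587 to 14818 CPM in group I (median 9722) and from 2057 to 6490 CPM in group II (median 5180). In group III pigs 41, 43, 45 and 46 had 3208, 2939, 4298 and 4528 CPM and pig 48 had 11626 CPM. In group IV pigs 49, 52, 53, 54 and 55 had 4618, 7686, 6026, 6071 and 7038 CPM. Group IV was the tightest of the 4 groups for FASN, with an SD of 1164 CPM around a mean of 6288 CPM (n = 5).

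SCD ranged from 13036 to 22085 CPM in group I (median 16578) and from 2489 to 11906 CPM in group II (median 8908), without overlap. In group III pigs 41, 43, 45 and 46 had 8341, 2762, 3799 and 10353 CPM, and pig 48 with 26623 CPM exceeded all 22 other pigs. In group IV pigs 49, 52, 53, 54 and 55 had 12258, 23934, 13596, 8346 and 11310 CPM. Every group II pig lay below group I for this desaturase, whereas in group IV 3 pigs lay below it and pig 52 lay above it.

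**Figure D1:**
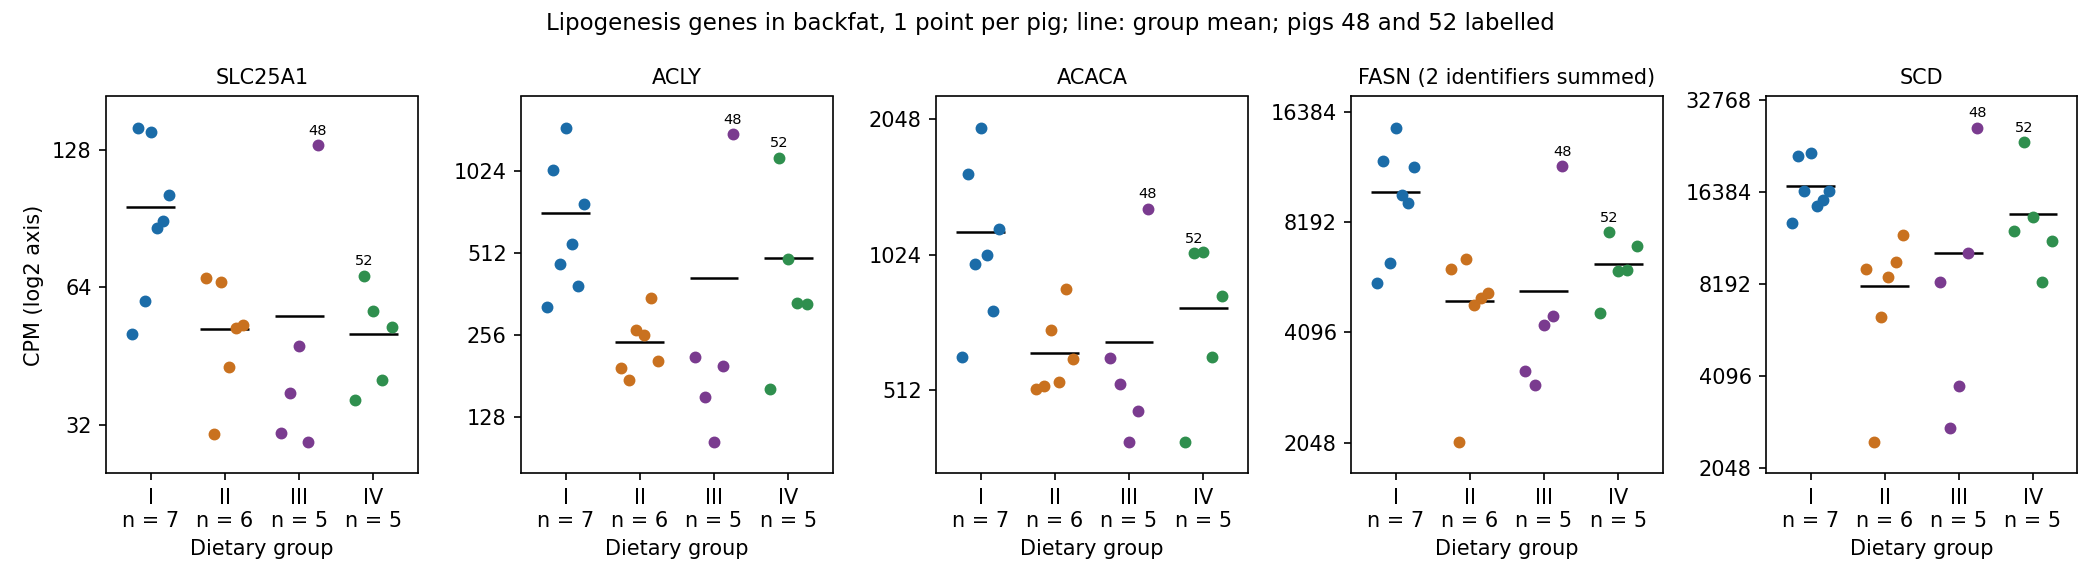
CPM of SLC25A1, ACLY, ACACA, FASN (identifiers summed) and SCD on log2 axes, with 1 point per pig, a line at the mean of each dietary group and pigs 48 and 52 labelled. The mean of group II lies below that of group I in every panel, and pig 48 lies above the other 4 pigs of group III in all 5.

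The pigs kept much of their order from gene to gene. In group I, pig 1 was lowest for 5 of the 5 genes and pig 5 highest for 4. Pig 19 was lowest of group II for 4 genes, pig 49 lowest of group IV for 4, pig 52 highest of group IV for 4 and pig 48 highest of group III for 5. No single pig of group II led the others: 4 different pigs were highest there for at least 1 gene.

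The comparison of groups I and II asks what DDGS did with rapeseed oil in both diets. All 5 genes had lower means in group II. ACLY had the largest difference, 717 ± 414 CPM (SD, n = 7) against 241 ± 63.8 CPM (SD, n = 6), a log2 fold change of -1.57 ± 0.31 (SE) in the edgeR fit. SCD had 17147 ± 3429 CPM against 8050 ± 3251 CPM and a log2 fold change of -1.09 ± 0.28 (SE). FASN had 9904 ± 3249 CPM against 4982 ± 1563 CPM, and its identifiers gave log2 fold changes of -0.99 and -1.01. ACACA had 1149 ± 465.9 CPM against 620 ± 135 CPM (log2 fold change -0.89), and SLC25A1 had 95.6 ± 35.8 CPM against 51.8 ± 13.8 CPM (log2 fold change -0.88). As folds, the fitted level in group I was 2.98 times that in group II for ACLY and between 1.84 and 2.13 times for the other identifiers.

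Whether these differences passed the threshold of an adjusted p under 0.05 with a fold change above 1.3 depended on the tool. With edgeR's quasi-likelihood test, 0 of the 6 identifiers passed (adjusted p from 0.143 for ACLY to 0.216 for SLC25A1), while 0.0291% of the 10323 genes tested did. At an unadjusted edgeR p under 0.05, all 6 were lower in group II, against a background of 6.41% of genes. DESeq2's Wald test called 6 of the 6 lower in group II, where it called 0.378% of genes lower, with adjusted p from 0.00048 for ACLY to 0.0478 for SLC25A1. limma-voom called 0 of the 6, with a background of 0.0194% called lower. Since the paper had already named these genes as lowered in group II of these same pigs, the counts beside the background are a description and no independent test. By the exact two-sided permutation test of each gene alone, unadjusted over genes, the difference gave p = 0.000583 for SCD, 0.00291 for ACLY, 0.00583 for FASN, 0.00991 for ACACA and 0.0146 for SLC25A1. The value for SCD is the smallest that 7 pigs against 6 can give. SCD was the member whose groups did not overlap, as for 0.242% of all genes, with every pig of group II below every pig of group I.

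In bulk tissue, fewer cells of a type and less RNA per cell cannot be told apart. The summed level of the 5 macrophage markers with an identifier was between 29.9 and 136 CPM in group I and between 147 and 297 CPM in group II. All 4 of those tested were higher in group II at an unadjusted edgeR p under 0.05 (log2 fold changes from 0.98 to 1.64, background 6.55% higher), and 0 passed the adjusted threshold. The paper had already named VSIG4, MRC1 and C1Q (chain not given) as raised by DDGS in these same pigs, so these markers are not an independent set. The adipocyte markers ranged from 1386 to 1852 CPM in group I and from 995 to 1768 CPM in group II, with log2 fold changes of -0.12 ± 0.15 (SE, adjusted p = 0.76 with edgeR's quasi-likelihood test) for PLIN1 and -0.44 ± 0.17 (SE, unadjusted p = 0.0209, adjusted p = 0.308) for CIDEC. The part of these markers in the lipogenesis result was not tested. With the share of reads outside genes as a covariate, the edgeR log2 fold changes were -1.28 for ACLY, -0.77 for SCD, -0.63 for ACACA, -0.59 and -0.60 for the FASN identifiers and -0.42 for SLC25A1. With sex as a covariate, they ranged from -1.61 for ACLY to -0.90 for SLC25A1. With 1 pig of groups I or II left out, the edgeR log2 fold change of ACLY lay between -1.71 (without pig 22) and -1.30 (without pig 5). Without pig 1 it was -1.70, and ACLY then passed the threshold in edgeR. Pig 1 is the lowest of group I for ACLY, so leaving it out widens the difference between the groups. That call is therefore a description and no test.

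The comparison of groups I and III joined DDGS with a change of the added fat to beef tallow, and rested on pig 48. With all 5 pigs of group III, the log2 fold changes (group III minus group I) were -0.79 ± 0.59 (SE) for ACLY, -0.72 ± 0.43 for SCD, -0.81 ± 0.32 for ACACA, -0.80 ± 0.37 for SLC25A1, and -0.89 ± 0.35 and -0.91 ± 0.32 for FASN. None of the 6 passed in edgeR (adjusted p from 0.555 to 0.771), where 0% of 10423 genes did, and DESeq2 called 0 of the 6 at a background of 0.0768% called lower. At an unadjusted edgeR p under 0.05, 4 of the 6 were lower, against 3.9% of genes. The exact permutation test gave p = 0.0227 for FASN, 0.0379 for SCD, 0.0417 for ACACA, 0.0455 for SLC25A1 and 0.0657 for ACLY.

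Pig 48 was left out because it lay far above its group on these same values. The separation and the p-values without it are therefore a description and no test. Without pig 48, the other 4 pigs of group III lay below all 7 pigs of group I for each of the 5 genes, a pattern shown by 0.729% of genes. The exact permutation p was then 0.00303 for ACLY, FASN and SCD, the smallest that 7 pigs against 4 allow, 0.00606 for SLC25A1 and 0.00909 for ACACA. The edgeR log2 fold changes were then -2.11 ± 0.40 (SE) for ACLY, -1.44 ± 0.33 for SCD, -1.40 ± 0.27 for SLC25A1, -1.41 and -1.38 for FASN and -1.21 ± 0.28 for ACACA. All 6 identifiers had an unadjusted p under 0.05 (background 5.07% lower), and 0 of the 6 passed the adjusted threshold (adjusted p from 0.134 to 0.168), as did 0% of the genes tested. Mean ACLY in these 4 pigs was 166 ± 49.1 CPM (SD, n = 4), and mean SCD was 6314 ± 3622 CPM.

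Group IV, with coconut oil, had a median log2 fold change over the 6 identifiers of -0.59 against group I, beside -0.996 for group II and -0.80 for group III. Group IV against group I gave log2 fold changes of -0.91 ± 0.25 (SE) for SLC25A1, -0.63 ± 0.24 and -0.71 ± 0.22 for FASN, -0.56 ± 0.29 for ACACA, -0.54 ± 0.44 for ACLY and -0.30 ± 0.25 for SCD. edgeR called 0 of the 6 (adjusted p from 0.155 to 0.607, 0% of 10388 genes called), and at an unadjusted p under 0.05 SLC25A1 and both FASN identifiers were lower (background 5.98%). DESeq2 called SLC25A1 alone (adjusted p = 0.0299, 0.395% of genes called lower). The exact permutation p was 0.0189 for SLC25A1, 0.0429 for FASN, 0.14 for ACACA, 0.15 for SCD and 0.239 for ACLY. Without pig 52, ACLY had -1.12 ± 0.40 (SE) and SCD -0.58 ± 0.22. With the share of reads outside genes as a covariate, the sign turned for ACACA (0.0055), ACLY (0.20) and SCD (0.15), so no direction can be given for these 3 genes between groups I and IV.

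Group I against groups II, III and IV combined (16 pigs) gave log2 fold changes from -0.69 for SCD to -0.94 for ACLY. edgeR called 0 of the 6 (adjusted p from 0.0965 to 0.288, 0% of 10749 genes called) and all 6 were lower at an unadjusted p under 0.05 (background 7.08% lower). DESeq2 called 4 identifiers, SLC25A1, ACACA and both of FASN (0.567% of genes called lower), and limma-voom called SLC25A1 and the FASN identifier ENSSSCG00000023044 (0.316% called lower). Without pig 48, edgeR called SLC25A1 (log2 fold change -1.02, adjusted p = 0.0376) and both FASN identifiers (-0.95 and -0.99, adjusted p = 0.0454 for each), while 0.263% of genes were called. Since pig 48 was removed for its height on these same genes, these calls are a description and no test. These 4 comparisons share the pigs of group I.

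**Figure D2:**
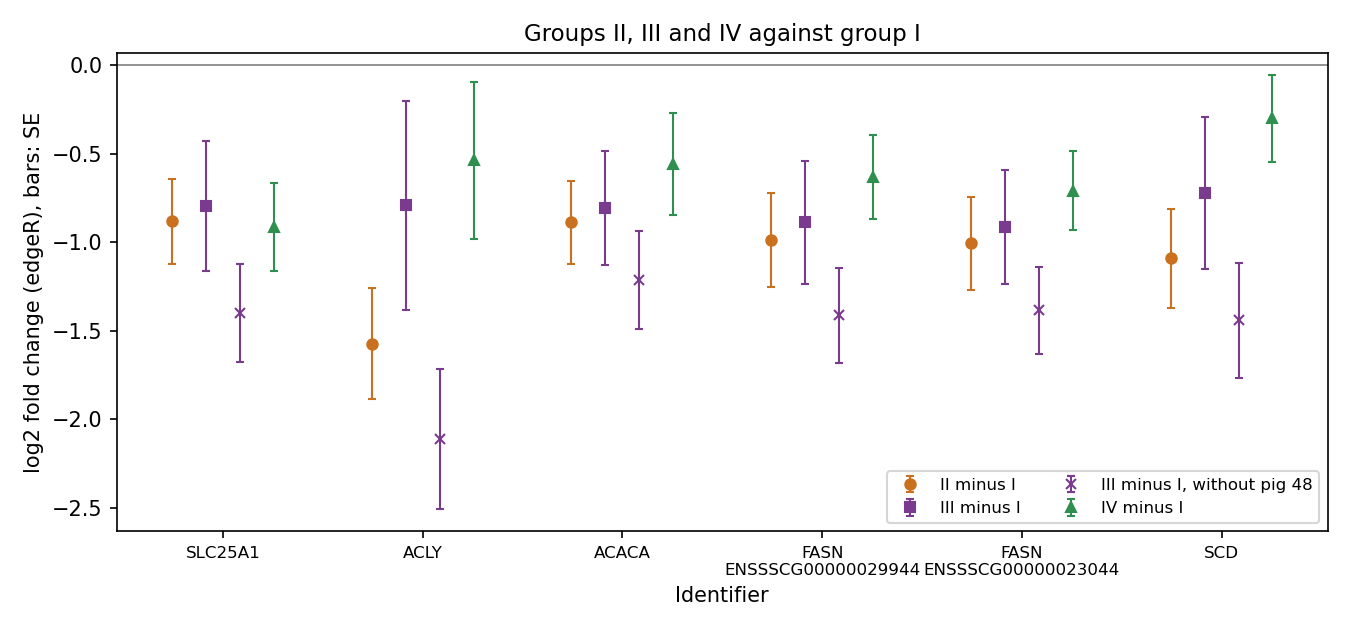
edgeR log2 fold changes with SE for the 6 identifiers, for groups II, III and IV against group I, and for group III without pig 48. All values lie below 0, and ACLY in group III moves from -0.79 to -2.11 when pig 48 is left out.

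Among the DDGS diets, no member passed the adjusted threshold in edgeR, with all pigs or without pig 48. From group II to group III, the log2 fold changes lay between 0.08 for ACACA and 0.78 for ACLY (adjusted edgeR p from 0.903 to 0.993, 0 of 6 called, 0% of genes), and without pig 48 all 6 were negative, from -0.33 for ACACA to -0.54 for ACLY. From group II to group IV, ACLY had a log2 fold change of 1.02 ± 0.37 (SE) and SCD of 0.78 ± 0.35, with unadjusted p of 0.0158 and 0.0442 and adjusted edgeR p of 0.967 for both (at an unadjusted p under 0.05, 2.08% of genes were higher). Without pig 52, ACLY had 0.44 ± 0.26 and SCD 0.49 ± 0.34. SLC25A1 had -0.05 ± 0.21 in the same comparison. All 4 macrophage markers tested had negative log2 fold changes from group II to group IV (median -0.62), from -0.77 for C1QA to -0.32 for CD68, with unadjusted edgeR p of 0.00567 for C1QA, 0.0189 for VSIG4, 0.0364 for MRC1 and 0.431 for CD68. From group II to group III they were also all negative (median -0.68). The part of these markers in the values of the members was not tested. From group III to group IV, all values were within 1 SE of 0 (adjusted p = 0.997 for each). Without pig 48 the exact permutation test between groups III and IV gave p = 0.0159 for FASN, where the groups did not overlap (as for 1.07% of genes, higher in group IV), 0.0238 for SCD, 0.0476 for ACLY, 0.0952 for SLC25A1 and 0.119 for ACACA. Here too pig 48 was removed for its height on these same genes, so these p-values are a description and no test.

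Females (gilts) had lower fitted expression than males (barrows) for all 6 identifiers, with diet group in the model. The log2 fold changes (female minus male) were -0.77 ± 0.37 (SE) for ACLY, -0.49 ± 0.29 for SCD, -0.49 and -0.44 for FASN, -0.43 for SLC25A1 and -0.28 for ACACA. None passed the adjusted threshold in edgeR (adjusted p from 0.22 to 0.488), where 0.954% of 10276 genes did, and 3 of the 6 had an unadjusted p under 0.05 (background 8.56% lower in females). Pigs 48 and 52 are both males. Without pig 48 the values were -0.41 ± 0.27 (SE) for ACLY, -0.30 ± 0.24 for SCD, -0.35 and -0.31 for FASN, -0.26 for SLC25A1 and -0.14 for ACACA. Markers of other tissues and cells also differed by sex. The skeletal muscle markers ACTA1 and MYL1 had log2 fold changes (female minus male) of -2.57 and -2.26 (unadjusted edgeR p of 0.012 and 0.0203). The fibroblast and matrix markers DCN, COL3A1 and PDGFRA had 0.61, 0.35 and 0.17 (unadjusted edgeR p of 0.00103, 0.0112 and 0.0646). The 4 macrophage markers tested had a median of 0.43 and the adipocyte markers one of -0.17. None of these markers passed the adjusted threshold, and their part in the sex difference of the members was not tested.

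Ratios between steps were taken as counts of the same pig, so that library scaling cancels. Counts are not corrected for gene length, so a ratio is compared only between pigs. ACACA over ACLY, the carboxylase against the enzyme that feeds it, was between 1.33 and 2.09 in group I (mean 1.73 ± 0.285, SD, n = 7) and between 2.09 and 3.00 in group II (2.62 ± 0.329, SD, n = 6). ACLY was thus lower relative to ACACA in group II, by a log2 difference of 0.61, the highest pig of group I and the lowest of group II meeting at 2.09 (exact permutation p = 0.00117). This was the 1 test of 42 on 6 ratios in 7 comparisons that passed Benjamini-Hochberg adjustment (adjusted p = 0.049). With any 1 pig of groups I or II left out, the log2 difference was between 0.55 and 0.67.

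In group III pigs 41, 43, 45 and 46 had ACACA over ACLY ratios of 2.83, 3.49, 3.8 and 2.35, and pig 48 had 0.926. In group IV pigs 49, 53, 54 and 55 had 2.42, 2.13, 1.81 and 2.50, and pig 52 had 0.899. Pigs 48 and 52 were the lowest 2 of the 23, and each had the highest ACLY level of its group. The difference between groups II and IV (log2 -0.50, exact permutation p = 0.0325, adjusted p = 0.455) and that between groups I and III (log2 0.50, exact p = 0.159, adjusted p = 0.668) did not pass.

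SLC25A1 over ACLY shares its denominator with that ratio. Group I had 0.147 ± 0.0416 (SD, n = 7), group II had 0.224 ± 0.0742 (SD, n = 6), group III had 0.219 ± 0.146 (SD, n = 5) and group IV had 0.135 ± 0.0603 (SD, n = 5). Between groups I and II the exact permutation p was 0.0332 (adjusted p = 0.455). FASN over ACLY, with the same denominator, was 15.5 ± 4.56 (SD) in group I and 21.2 ± 7.38 (SD) in group II. That log2 difference of 0.42 did not pass (exact permutation p = 0.137, adjusted p = 0.668). The ratios that leave out ACLY differed little: FASN over ACACA was 8.93 ± 1.84 in group I and 8.17 ± 2.80 in group II (exact permutation p = 0.481), and SCD over FASN was 1.84 ± 0.461 and 1.61 ± 0.469 (exact permutation p = 0.353). SCD over FASN ran from 0.884 in pig 45 to 3.11 in pig 52. Within group III it fell into low values in pigs 43 and 45 (0.940 and 0.884) and high values in pigs 41, 46 and 48 (2.60, 2.29 and 2.29).

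**Figure D3:**
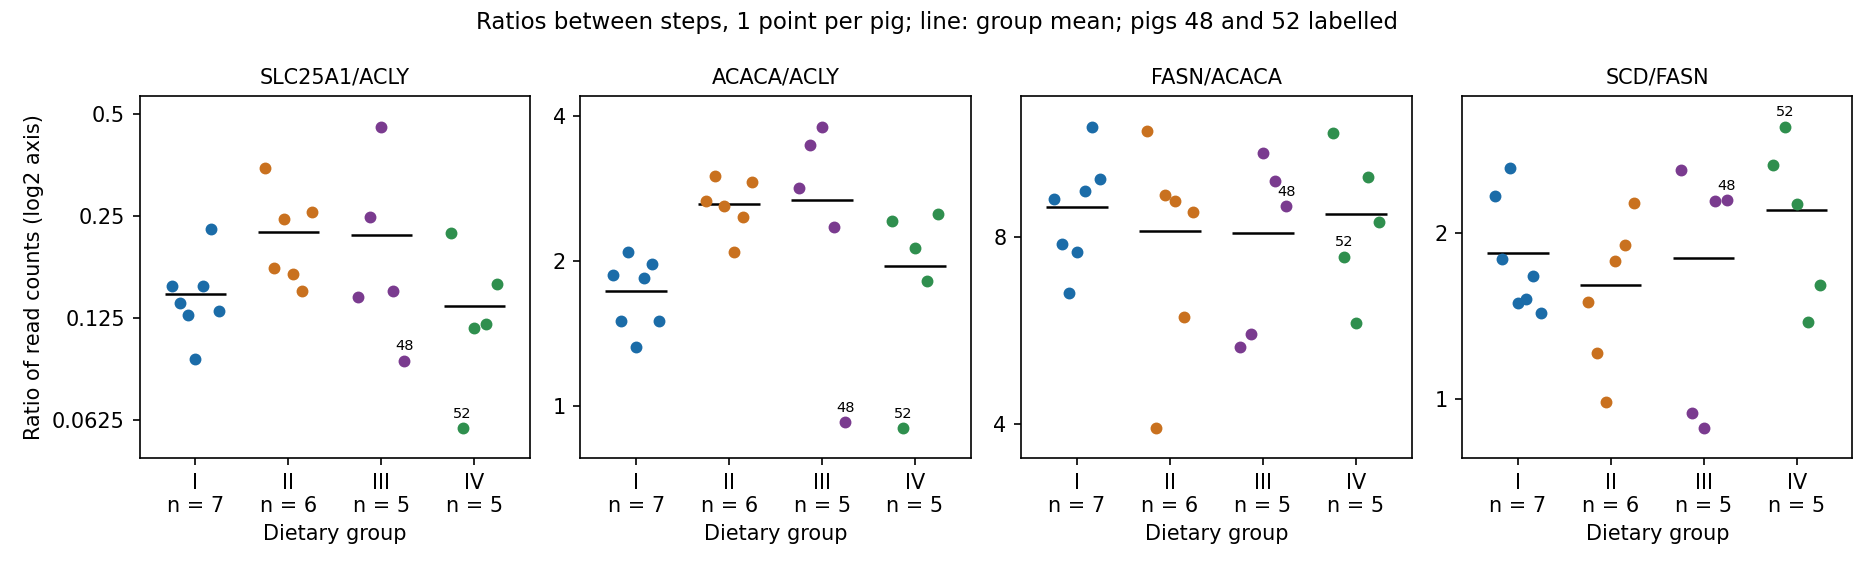
Ratios of read counts of SLC25A1 to ACLY, ACACA to ACLY, FASN to ACACA and SCD to FASN on log2 axes, 1 point per pig, with the group mean as a line. ACACA over ACLY is higher in group II than in group I, and pigs 48 and 52 have the 2 lowest values at 0.926 and 0.899.

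The second FASN identifier, ENSSSCG00000023044, is named FASN by the study's tables and not by the reference table of gene names, and the reads of 1 gene may be split between the identifiers. Its counts were 0.400 ± 0.0223 (SD, n = 23) of those of the first, with a range from 0.354 to 0.431. Within diet groups, the log2 of this ratio had an SD of 0.08, against 0.02 from counting alone. Deviations of the 2 identifiers had r = 0.991 over the 23 pigs (permutation p = 1e-05, the smallest that 100000 resamples give). FASN is used as the sum of both.

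Within diet groups the members spread far more than most genes. The SD of log2 CPM around the diet-group mean was 0.95 for ACLY, 0.78 for SCD, 0.58 for SLC25A1, 0.57 for FASN and 0.54 for ACACA. Counting error accounts for at most 0.10 of this, for SLC25A1. The median SD of the 957 genes with a mean of at least 500 counts was 0.26, and between 93.4% (ACACA) and 98.6% (ACLY) of these genes had a smaller SD. Without pig 48, the SDs were 0.72, 0.64, 0.45, 0.47 and 0.47 in the same order.

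The members moved together from pig to pig within diet groups. Each pig's log2 CPM was taken as the deviation from its diet-group mean, and p-values came from permuting pigs within diet groups. All 10 pairs of the 5 genes were positively correlated over the 23 pigs, with r from 0.58 to 0.92 (median 0.75) and Spearman's rho from 0.51 to 0.90. The permutation p adjusted over the 10 pairs was between 0.0001 and 0.00922 for r and between 5e-05 and 0.0166 for rho. The values of a pair come from the same library and share its scaling, and the part of that scaling in r was not tested. Over all 11033 genes compared, the median correlation with the members' mean deviation was -0.02, with quartiles of -0.24 and 0.21. TMM normalization sets each library by the bulk of its genes, which holds this median near 0. Some cell type markers also went with this mean deviation. The r was 0.54 for PLIN1 and 0.47 for CIDEC (0.55 and 0.57 without pig 48). For the fibroblast and matrix markers it was -0.51 for DCN, -0.40 for PDGFRA and -0.36 for COL3A1 (-0.45, -0.42 and -0.54 without pig 48). For the macrophage markers it was -0.45 for VSIG4, -0.40 for MRC1, -0.36 for C1QA and 0.004 for CD68. Without pig 48 these were -0.23, -0.17, -0.30 and -0.11. Their part in these correlations was not tested.

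ACLY and ACACA, consecutive steps, had the highest r at 0.92 (adjusted permutation p = 0.0001), followed by SLC25A1 and FASN at 0.91 (adjusted permutation p = 0.0001). The carrier SLC25A1 had r = 0.79 with ACLY, 0.78 with ACACA and 0.62 with SCD. ACLY had r = 0.75 with FASN and 0.72 with SCD. The pathway's order was thus not the order of the correlations: r of SLC25A1 was higher with FASN than with ACLY, the enzyme that acts next, though the difference between these values was not tested. FASN had r = 0.76 with SCD and 0.69 with ACACA, and ACACA and SCD had the lowest r at 0.58 (adjusted permutation p = 0.00453).

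Pig 48 had a large share in these correlations. Without it, r lay between 0.37 and 0.90 (median 0.60), and SLC25A1 with SCD no longer passed (r = 0.37, permutation p = 0.0669). Leaving out the pigs farthest from the median of the first gene of each pair gave r from 0.40 to 0.93, and ACLY with ACACA was at the top of that range. In group I alone (7 pigs), the 10 values of r lay between 0.78 and 0.98 (median 0.89). In group II alone (6 pigs) they lay between 0.31 and 0.94 (median 0.47), with SLC25A1 and FASN at 0.94 (exact permutation p = 0.00417) and ACLY and ACACA at 0.86 (exact permutation p = 0.0222). The difference between the groups was not tested.

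**Figure D4:**
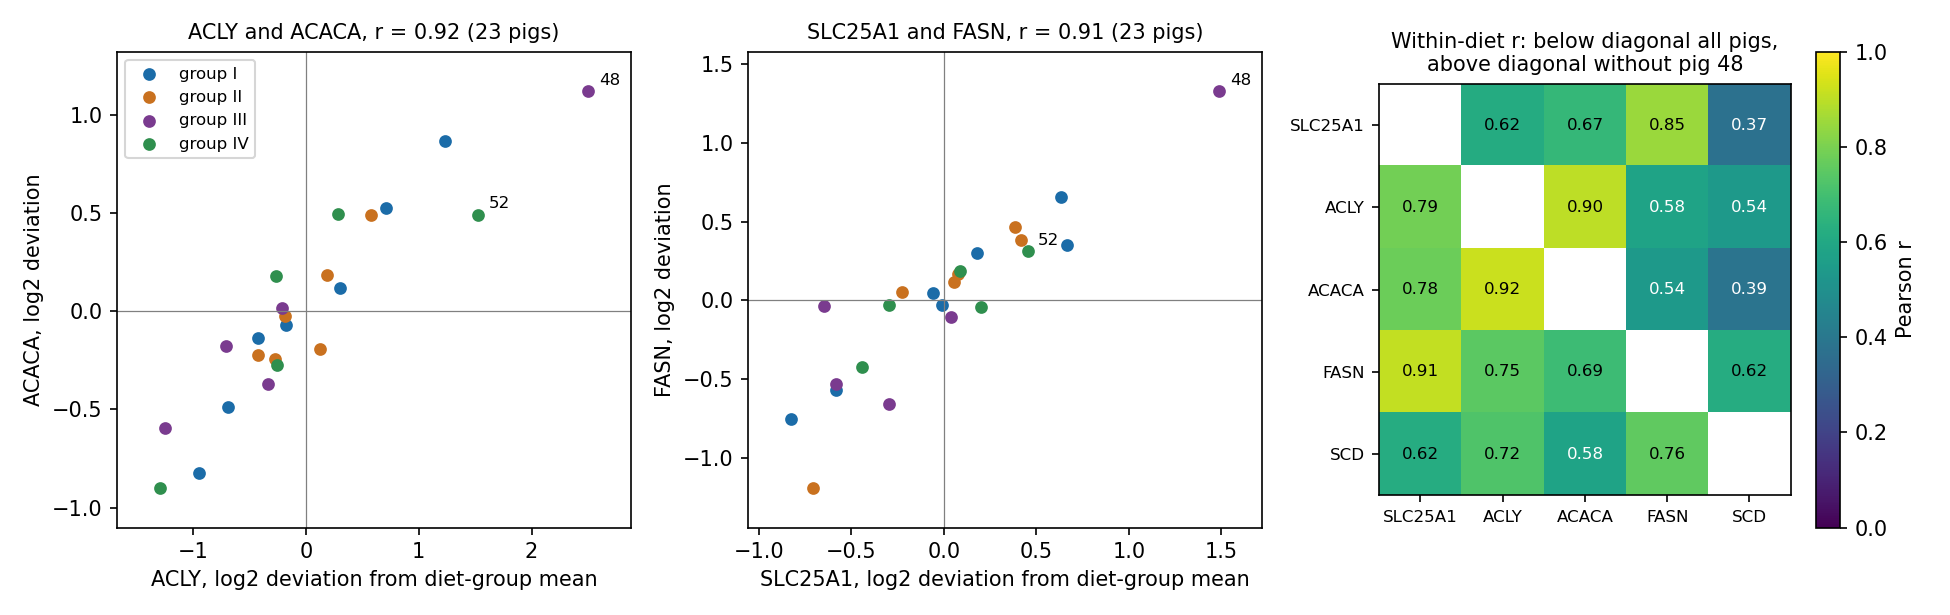
Deviations from the diet-group mean (log2 CPM) of ACACA against ACLY and of FASN against SLC25A1, 1 point per pig, and Pearson r of all 10 pairs, below the diagonal over 23 pigs and above it without pig 48. Pig 48 is at the top right of both plots, and r stays at 0.90 for ACLY with ACACA and 0.85 for SLC25A1 with FASN without it.

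Pig 48, a male of group III, was singled out because it lay far above its group. Its fold over the mean of the other 4 pigs of group III was 8.45 for ACLY, 4.22 for SCD, 3.6 for SLC25A1, 3.11 for FASN and 2.62 for ACACA. As a description of this library, the gap of pig 48 over the highest of the other 4 pigs was ranked over 6435 genes with a mean of at least 10 CPM. ACLY ranked 1 with a log2 gap of 2.71, SLC25A1 9 with 1.45, the FASN identifiers 11 and 15 with 1.39 and 1.28, SCD 12 with 1.36 and ACACA 29 with 1.10. A gap of at least 1 was found for 40 genes (0.622%), and 28.3% of genes had pig 48 above the other 4 at all. TMM normalization sets each library by the bulk of its genes, so this share cannot show a height common to most genes.

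The other genes with the largest gaps included several that serve the same pathway. ME1, malic enzyme, which makes NADPH for FASN, ranked 2 with 2332 CPM in pig 48 and at most 585 CPM in the other 4. PDHB, a subunit of the pyruvate dehydrogenase complex that feeds citrate synthesis, ranked 3 with 728 against at most 221 CPM. ACSS2, which makes acetyl-CoA from acetate, ranked 7 with 303 against at most 99.7 CPM. ECHDC1, ethylmalonyl-CoA decarboxylase, ranked 8 and SC5D, a sterol desaturase, ranked 10. SAL1, C9orf152, HRG, ODAD4 and ENSSSCG00000012345 made up the rest of the 10 genes with the largest gaps outside the members. The macrophage markers of pig 48 summed to 57.8 CPM, the lowest of group III (57.8 to 189 CPM), and its adipocyte markers to 1566 CPM, the highest of group III (1247 to 1566 CPM). Its share of reads outside genes, 51.1%, was the lowest of the 23 pigs. The part of cell composition and of this share in the values of pig 48 was not tested.

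Genes most like the members were found by correlating every gene's within-diet deviation with the mean standardized deviation of the 5 genes. Among the 10 genes with the highest r were ACSS2 (r = 0.95), PDHB (0.93), ME1 (0.91), ATP5F1A (0.90), DLAT (0.90), TALDO1 (0.90), ENSSSCG00000028960 (0.89), ACO1 (0.88) and ETFA (0.87). Of these, PDHB and DLAT are subunits of pyruvate dehydrogenase, ME1 makes NADPH, TALDO1 belongs to the pentose phosphate pathway and ATP5F1A is a subunit of ATP synthase. Of the 11033 genes, 6 had r over 0.9, 37 over 0.8 and 123 over 0.7. Without pig 48, ACSS2 (0.90), PDHB (0.87) and DLAT (0.86) held the first 3 places. Between groups I and II, ME1 had 1241 ± 517 CPM (SD, n = 7) against 525 ± 204 CPM (SD, n = 6), a log2 fold change of -1.24 ± 0.32 (SE, adjusted p = 0.211 with edgeR). ACSS2 had 185 ± 58.8 CPM against 122 ± 29.8 CPM (log2 fold change -0.60, adjusted p = 0.263 with edgeR).

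The share of reads outside genes also moved with the members. Its correlation with the members' mean deviation within diet groups was -0.57 (rho -0.66, n = 23), -0.64 without pigs 21 and 54, which lie farthest on that share, -0.78 within group I and -0.50 without pig 48. By gene it was -0.67 for SLC25A1, -0.61 for FASN, -0.52 for SCD, -0.42 for ACACA and -0.36 for ACLY. Of the other measures taken, the RNA integrity number had r = 0.40 with the mean deviation (rho 0.35, n = 23, permutation p = 0.094 and 0.129, adjusted over 4 measures 0.188 and 0.258), 0.68 without pigs 3 and 43, which lie farthest on that number, 0.21 within group I, 0.79 within group II and 0.34 without pig 48. The number of gene counts per pig had r = 0.09 and the share of the most abundant gene r = -0.05. With the share of reads outside genes as a covariate, r of the 10 pairs lay between 0.43 and 0.91 (median 0.69), and SLC25A1 with SCD no longer passed (permutation p adjusted over the 10 pairs = 0.0847).

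The rest of the pathway was described from lists of genes, of which 72 of 99 had an identifier. In acetyl-CoA and citrate supply, 7 of 7 genes tested had a negative log2 fold change from group I to group II, and 5 of them were lower at an unadjusted edgeR p under 0.05 (background 6.41%). The range ran from PDHB (log2 fold change -0.79) to PC, pyruvate carboxylase (-0.20). In NADPH supply, 5 of 5 were negative and 4 at p under 0.05, from ME1 (-1.24) to IDH1 (-0.31). MID1IP1, which promotes the polymerization of acetyl-CoA carboxylase, had -0.51 (unadjusted p = 0.0243). None of these passed the adjusted threshold. The median log2 fold changes were -0.60 for acetyl-CoA and citrate supply and -0.38 for NADPH supply, beside -0.996 for the 6 members and 0.00 for all 10323 genes.

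Sterol synthesis, which draws on the same acetyl-CoA, had a negative log2 fold change in 7 of 8 genes, 6 of them at an unadjusted p under 0.05, with a median log2 fold change of -0.55. Its AACS, acetoacetyl-CoA synthetase, passed the adjusted threshold (log2 fold change -0.82 ± 0.12, SE, adjusted p = 0.0393 with edgeR), and its highest value was 0.31 for FDFT1, squalene synthase. The paper had already listed AACS and HMGCS1 as lowered by DDGS in these same pigs, and PDHX of the acetyl-CoA and citrate list. The counts of these lists are therefore no independent test. Among genes of glucose entry and glycolysis, 5 of 6 were negative and 4 at p under 0.05, from HK2 (-0.84) to PFKL (0.01). In fatty acid uptake and lipolysis, 5 of 5 were negative and 3 at p under 0.05, from ABHD5, the activator of adipose triglyceride lipase (-0.60), to SLC27A1 (-0.16). In triglyceride synthesis, 3 of 4 were negative and 2 at p under 0.05, from ACSL1 (-0.52) to LPIN1 (0.03).

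Elongation and desaturation did not share the direction as a group. Of its 5 genes tested, HSD17B12, a reductase of fatty acid elongation, was lowest (-0.53, unadjusted p = 0.00796) and SCD5, the second stearoyl-CoA desaturase, highest (0.69, unadjusted p = 0.0436). SCD5 was expressed at a mean of 3.25 CPM and correlated with the members' mean deviation at -0.64 within diet groups (-0.39 without pig 48). ELOVL5 was at 0 counts in all 23 pigs. Among regulators of lipogenesis, 4 of 8 were negative and 2 at p under 0.05, from MLXIPL, the carbohydrate response factor ChREBP (-0.56, unadjusted p = 0.00346, adjusted 0.224), to PPARG, the adipocyte nuclear receptor (0.33). Within diet groups the r of these 8 regulators with the members' mean deviation lay between -0.21 and 0.39, with 0.10 for MLXIPL and -0.04 for PPARG. Without pig 48 it lay between -0.23 for PPARG and 0.52 for INSIG1. Of the 11 regulators listed, SREBF1 and INSIG2 had no identifier and SREBF2 was at 0 counts in all 23 pigs. The values therefore do not cover SREBF1 or SREBF2.

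Against group I, group III gave median log2 fold changes of -0.35 for acetyl-CoA and citrate supply, -0.26 for NADPH supply and -0.57 for sterol synthesis, and group IV gave -0.34, -0.23 and -0.43, with 0 genes called in both comparisons. Over all genes tested these medians were 0.00 and -0.01. The 4 macrophage markers tested had median log2 fold changes of 0.72 in group III and 0.71 in group IV, against 1.34 in group II. CSF1R, not tested in groups III and IV, had means of 1.87 CPM in group I, 0.573 in group III and 0.661 in group IV. CIDEC had -0.42 and -0.38 (unadjusted edgeR p of 0.0355 and 0.0434) and PLIN1 -0.14 and -0.06 in groups III and IV.

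**Figure D5:**
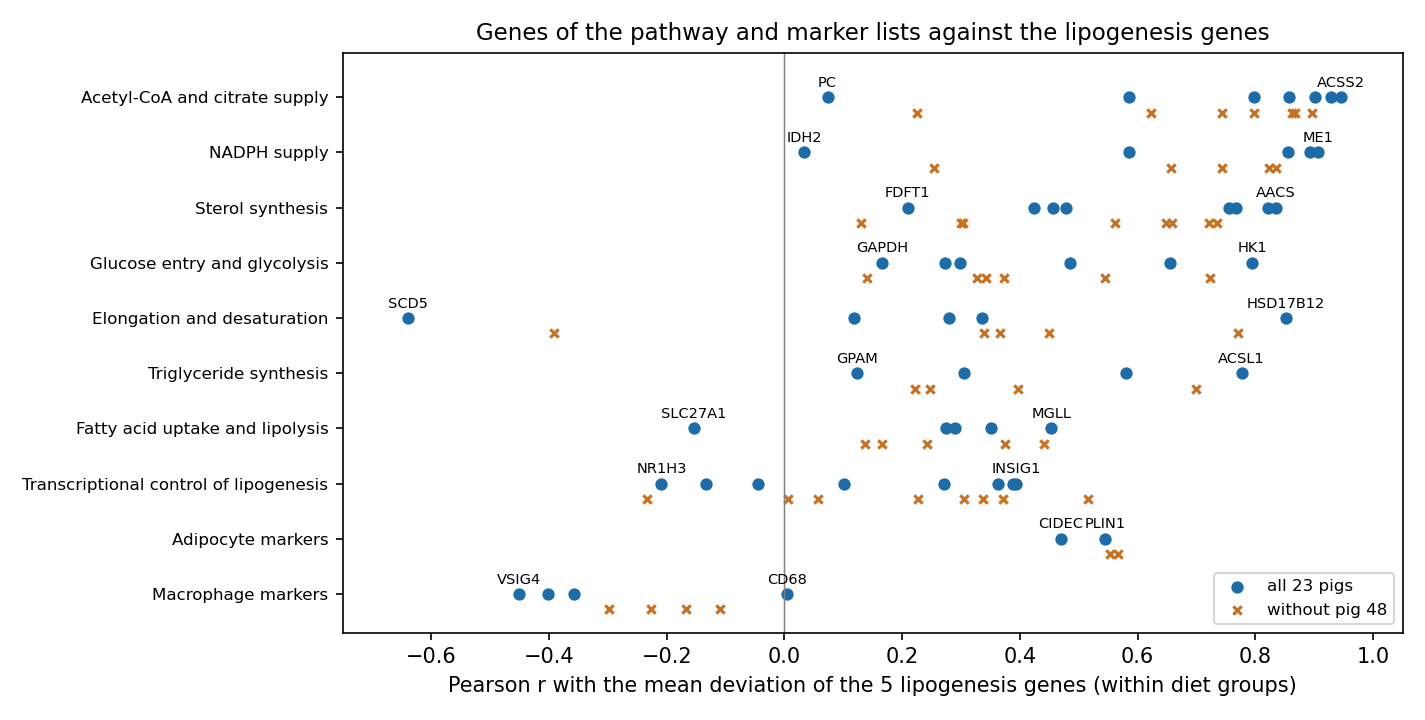
Pearson r of the genes of each list with the mean deviation of the 5 lipogenesis genes within diet groups, for 23 pigs (points) and without pig 48 (crosses, set lower), with the lowest and highest gene of each list named. ACSS2 and ME1 reach 0.95 and 0.91, the 8 regulators of lipogenesis compared stay at or below 0.39 over 23 pigs, and SCD5 lies at -0.64.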

How the data were processed

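Backfat RNA of 23 pigs was sequenced from stranded total RNA libraries (single-end reads) depleted of ribosomal RNA. The RNA was partly degraded. The authors deposited raw read counts per Ensembl gene for each pig, made with bcl2fastq, FLEXBAR, TopHat and HTSeq. The paper names FastQC for the quality check, and RSEM beside SAMStat, RSeQC and HTSeq for mapping statistics and read counts. Libraries were sequenced in repeated runs on 1 flow cell, and how the runs were merged is not given in the sources used here. Each file held 25322 genes and 5 summary lines, which were left out. Depth was 2437172 to 7979426 gene counts per pig. Within-group pairs of libraries (56) all differed beyond counting noise (smallest chi-square per degree of freedom 7.02). Each sample is a separate pig, and no batch is given in the labels.

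Groups came from the labels. Each comparison was fitted on its own groups with edgeR 4.0.16 in R 4.3.3 (TMM normalization, filterByExpr, quasi-likelihood test), with Benjamini-Hochberg adjustment over all genes tested. A gene was called at an adjusted p under 0.05 with a fold change above 1.3. The sex comparison had diet group as a covariate. DESeq2 1.42.0 and limma 3.58.1 (voom, weighting each pig by its quality) were alternatives. On simulated counts for groups I and II with a log2 fold change of 1, edgeR recovered 64.2% of 193 changed genes among 10099, DESeq2 71.0% and limma-voom 61.1%, and 4.62%, 11.0% and 2.48% of the calls were false. Single members were compared by exact two-sided permutation tests on log2(CPM + 0.5), 49 in all, of which 23 had an unadjusted p under 0.05. CPM used TMM factors over 23 pigs and the 11039 genes kept. Ratios were tested on log2 ratios of counts, and correlations by permuting pigs within diet groups with 100000 resamples (Python 3.11.15, numpy 2.4.6, pandas 2.3.3).

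The members, pathway lists and tests were chosen with earlier results of these data known. Genes named beside the members are, in each list, the lowest and highest log2 fold change between groups I and II and any gene called, the 10 genes most like the members and the 10 with the largest gap of pig 48. Markers were named only for their list, and single markers, SCD5 and ELOVL5 with further values after these were seen. RNA integrity numbers, used only as a covariate and in 1 correlation, came from the study's sample table. Symbols came from a reference table (11804 identifiers) or, for 79 identifiers, the pairs in the study's tables. No coordinates are given. Alternatives were another normalization, other filters, covariates for sex, RNA integrity and reads outside genes, all pigs in 1 fit, FASN identifiers summed, other pseudocounts and medians, and leaving out each pig in turn. Exact tests without pig 48 were chosen after the data were seen. Of the genes whose pattern was most like that of the members, 1 is not reported here.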

Additional observations from a re-analysis of the deposited data

Results flagged for a closer look

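In groups of 5 to 7 pigs, a pig was marked where its gap to the nearest other, divided by the range of the group, exceeded Dixon's 95% limit (0.71 for 5, 0.625 for 6 and 0.568 for 7 pigs). This marked 8 of 52 groups of values. Chance marks about 1 in 20 independent groups, but the members move together, FASN enters as a sum and as its 2 identifiers, and pig 48 was singled out on these same values, so the number marked is a description and no test.

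Pig 48 of group III accounts for 6 of the 8. It had 1401 CPM of ACLY (next 213), 131 CPM of SLC25A1 (next 47.6), 1297 CPM of ACACA (next 603) and 11626 CPM of FASN (next 4528), with 8433 CPM for ENSSSCG00000029944 and 3193 CPM for ENSSSCG00000023044. Its SCD, 26623 CPM, was the highest of the 23 pigs but was not marked, since the other 4 pigs of group III spread from 2762 to 10353 CPM.

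Pig 19 of group II accounts for the other 2, at the low end. It had 2057 CPM of FASN (next 4874) and 538 CPM of ENSSSCG00000023044 (next 1388). It was also the lowest of group II for SLC25A1, ACLY and SCD, without being marked there.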

How the results depend on the processing

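No paired analysis was possible because the labels give no replicate numbers shared between groups. The number of identifiers called was 0 in every comparison with edgeR. It was 6 with DESeq2 for groups I and II, 1 for groups I and IV and 4 for group I against the others combined, where limma-voom gave 2. The cause was not tested. Leaving out 1 pig gave 0 to 1 calls for groups I and II, 0 to 3 for group I against the others combined and 0 for the other diet comparisons. Of the ratios, 1 of 42 tests passed, 0 with medians and 0 to 1 with 1 pig left out, where the exact test of a single ratio between groups I and II cannot pass adjustment over 42 tests once a pig of either group is left out. Of the 10 correlated pairs, 9 to 10 passed with 1 pig left out. The exact tests gave 23 p-values under 0.05 with either pseudocount and either normalization.

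With reads outside genes as a covariate, the log2 fold changes from group I to group IV turned to 0.20 for ACLY, 0.0055 for ACACA and 0.15 for SCD. From group II to group III they turned to -0.62 for SLC25A1, -0.17 for ACLY, -0.18 for ACACA, -0.60 and -0.57 for FASN and -0.39 for SCD with that covariate, and with limma-voom to -0.40, -0.18, -0.23, -0.13 and -0.083, and -0.0067. With sex as a covariate they were -0.033 for SLC25A1 and -0.058 and -0.043 for FASN, and with RNA integrity -0.040 for SLC25A1. From group III to group IV, SLC25A1 turned to 0.29 (limma-voom), 0.073 (sex), 0.10 (RNA integrity) and 0.68 (reads outside genes), and from group II to group IV to 0.011 (RNA integrity). The cause was not tested.

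With 1 pig left out, the ranges from group II to group III were -0.52 to 0.24 for SLC25A1, -0.54 to 1.02 for ACLY, -0.33 to 0.21 for ACACA, -0.43 to 0.26 and -0.38 to 0.24 for FASN and -0.35 to 0.62 for SCD. From group III to group IV they were -0.33 to 1.57 for ACLY and -0.28 to 0.48 for SLC25A1, and from group II to group IV -0.17 to 0.056 for SLC25A1. FASN over ACACA ranged from -0.31 to 0.0051 between groups I and II. Without pig 48, the log2 differences of the exact tests from group II to group III were -0.55 for ACLY, -0.30 for ENSSSCG00000023044 and -0.40 for SCD. Of the other single values, 579 kept direction and side of the threshold under the alternatives, 13 newly passed and 2 no longer passed. With 1 pig left out these counts were 870, 11 and 15. SLC25A1, with 105 counts in the lowest pig, is the member most limited by depth.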
